A study of Homo sapiens with 12 samples.

Results

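Potassium channel genes were examined in 3 established prostate cell lines, BPH-1, DU145 and PC3, by RNA sequencing. The genes are the 97 protein-coding rows of the deposited table whose symbol begins with KCN, out of 58302 genes in all and 19817 protein-coding genes. The rule did not use their levels. BPH-1 is a benign prostatic epithelial line immortalized with a viral oncogene, and DU145 and PC3 are prostate cancer (PCa) lines grown out of metastases. Each line has 4 libraries of untreated wild-type cells, which were all cultured in DMEM with fetal bovine serum. Each line is a single isolate, so the difference between benign and malignant cells cannot be told apart from the difference between these isolates. The sources used here do not say whether the 4 libraries of a line came from separate cultures, and the p-values then measure only the spread between libraries, which may be technical.

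Potassium channels let potassium leave the cell along its gradient and so set the resting membrane potential, which bears on cell volume, calcium entry and the cell cycle. K2P channels (KCNK genes) carry background leak currents. Inward rectifiers (KCNJ) hold the potential near rest, voltage-gated channels (KCNA to KCND, KCNH, KCNQ) open on depolarization, and calcium-activated channels (KCNMA1, KCNN) couple potassium efflux to intracellular calcium. Modifier subunits (KCNF, KCNG, KCNS, KCNV) are counted below with the voltage-gated genes. Auxiliary subunits (KCNAB, KCNE, KCNIP, KCNMB) form no pore and alter the gating or traffic of the pore subunits.

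The pore subunits share the selectivity filter, a short loop that strips water from potassium ions. Coding windows of 27 bases around this filter are shown for members with the leading levels below. The capitals mark its 3 codons for glycine, a tyrosine, phenylalanine or leucine, and glycine. The windows were read from 1 GENCODE 29 transcript per gene on GRCh38, on the coding strand. K2P subunits carry a pair of pore loops per chain, and both are shown for KCNK5. The KCNK15 window is the only match in that gene to the motif searched below. It lies at residue 199 of 330, near the position of KCNK5 pore 2 (residue 203 of 499).
KCNK15: ctcaccaccatcGGCTTCGGCgacttc
KCNK5 pore 1: attaccaccattGGATATGGCaatgtg
KCNK5 pore 2: atctccaccatcGGCTTCGGTgacttt
KCNK1 pore 2: ctgagcaccattGGCCTGGGGgattat
KCNK6 pore 2: ctgtccaccatcGGCCTGGGCgactac
KCNG1: atgacgacggtgGGCTATGGCgacatg
KCNN4: ttcctgaccatcGGCTATGGTgacgtg
KCNMA1: atgtccaccgttGGTTATGGGgatgtt
In GRCh38 the KCNK15 window lies at chr20:44750434-44750460 on the plus strand, the KCNN4 window at chr19:43772051-43772077 on the minus strand and the KCNMA1 window at chr10:77110230-77110256 on the minus strand. Each of these 3 windows lies within a single coding exon. The first KCNK5 window spans an exon junction.

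A search in frame for threonine, any residue, glycine, then tyrosine, phenylalanine or leucine, then glycine found a match in 68 of the 97 KCN genes (70.1%), against 2.33% of 19512 protein-coding genes with a coding sequence. All 15 K2P genes held it, 13 of them at least 2 times. It was found in 15 of 16 inward rectifier genes, 33 of 40 voltage-gated genes, 5 of 8 calcium- or sodium-activated genes and 0 of 18 auxiliary genes. These letters are a description of the coding sequence, and a gene without a match may carry a variant of the loop.

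Of the 97 KCN genes, 24 (24.7%) reached a mean of 0.5 FPKM (fragments per kilobase of exon, scaled to library depth) in any line, against 65.0% of all protein-coding genes. Of the other genes, 18 had 0 reads in all 12 libraries, and 38 genes, these included, had at most 3 reads in every library. The threshold was passed by 11 genes in BPH-1, 19 in DU145 and 11 in PC3. Of all 19817 protein-coding genes, 11061 passed it in DU145, and the numbers for BPH-1 and PC3 are not given here. At a mean of 1 FPKM the numbers were 7, 11 and 8. Just inside the threshold lay KCNQ5 with 0.598 FPKM in BPH-1 and KCNQ1 with 0.626 FPKM in DU145. Those just outside included KCNIP3 with 0.478 FPKM in PC3 and KCNH2 with 0.455 FPKM in DU145.

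The authors' gene length counted overlapping exons of different transcripts more than once, which lowers the FPKM of genes with many isoforms. With overlapping exons merged, 29 genes reached 0.5. The levels below are FPKM as deposited.

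Only 5 genes were at 0.5 FPKM or above in all 3 lines, namely KCNK1, KCNK6, KCNN4, KCNG1 and KCNAB2. DU145 alone passed the threshold for 7 genes (KCNS3, KCNK3, KCNH1, KCNJ11, KCNN1, KCNK13 and KCNQ1), BPH-1 alone for 4 (KCNJ15, KCND1, KCNC4 and KCNQ5) and PC3 alone for KCNJ12. DU145 and PC3 shared 5 genes (KCNK15, KCNMA1, KCNF1 and KCNAB3 among them), and BPH-1 and DU145 shared KCNK5 and KCNJ14. The highest mean was in DU145 for 13 of the 24 genes, in PC3 for 6 and in BPH-1 for 5. The matching shares over all protein-coding genes are not given here, so these counts by line are a description. The 24 genes are spread over 11 chromosomes, with 5 on chromosome 19 (KCNK6, KCNN4, KCNN1 and KCNJ14 among them).

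**Figure D1:**
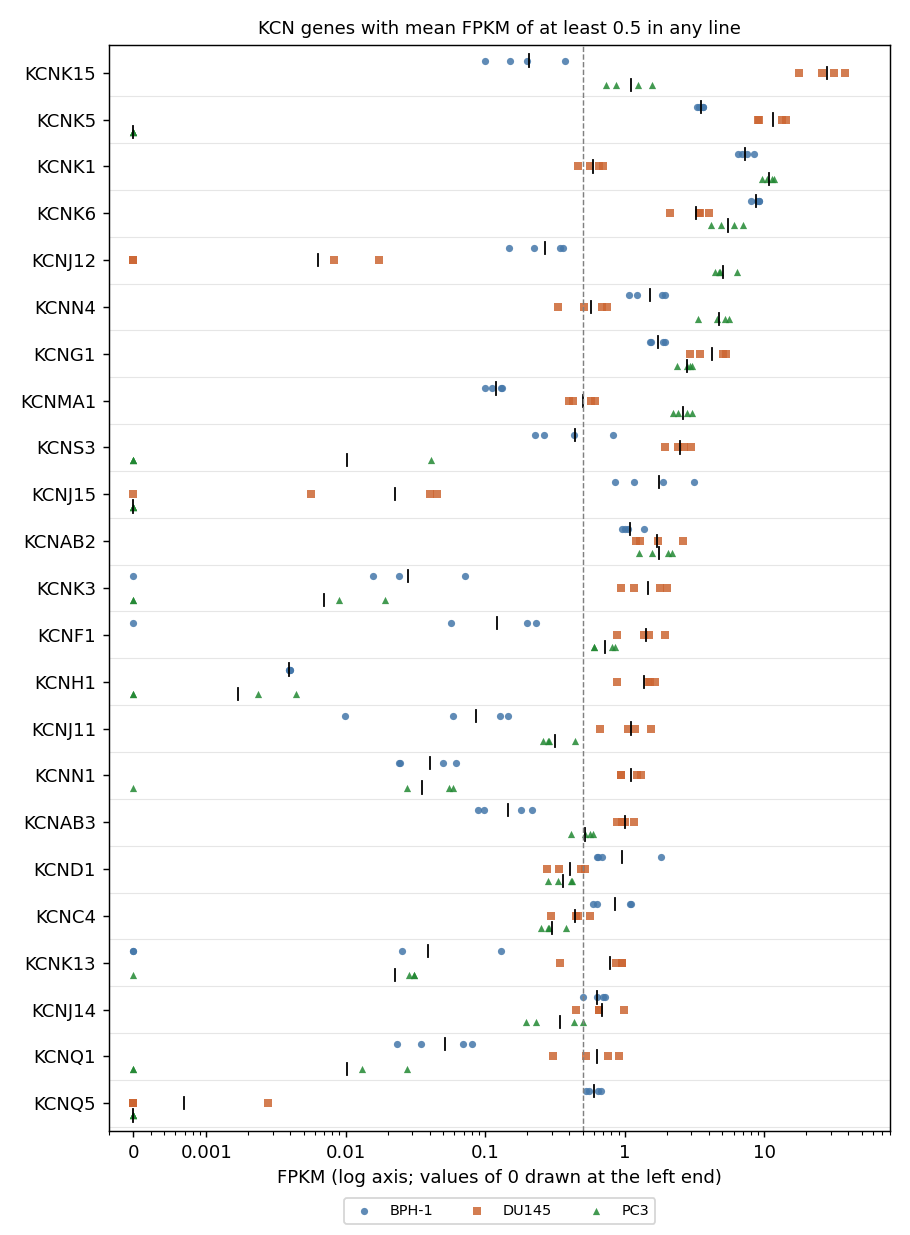
FPKM (log axis, with values of 0 at the left end) of 23 of the 24 KCN genes with a mean of at least 0.5 in any line. Points are the 4 libraries of BPH-1, DU145 and PC3, short bars are the means, and the dashed line is 0.5 FPKM. KCNK15 lies between 17.8 and 37.9 FPKM in DU145, and KCNK5 is at 0 in the 4 PC3 libraries.

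Sequencing depth, recovered from the steps between low values, was between 12950665 and 16309559 reads per library. The DU145 libraries were the most unlike each other, with replicates 1 and 3 apart from 2 and 4. The mean chi-square per gene was 37.0 between replicates 1 and 3 and 23.7 between 2 and 4. It was 104 to 215 for the other DU145 pairs. The SDs and limma p-values of DU145 treat its 4 libraries as interchangeable and make no allowance for this split. In DU145, both replicates 1 and 3 lay above both replicates 2 and 4 for 12 of the 19 KCN genes at 0.5 FPKM there and below them for 1. Of all 11061 protein-coding genes at that level, 5079 (45.9%) had replicates 1 and 3 above and 4058 had them below. KRT8, KRT18 and KRT19, keratins of simple epithelium, were present in every line. KRT5, the other keratin examined, was at 146.9 FPKM in BPH-1, 0.216 in DU145 and 0.0118 in PC3. CDH1, the epithelial cadherin, was at 28.4 FPKM in BPH-1, 0.180 in DU145 and 0.786 in PC3, and EPCAM at 60.8, 0.376 and 9.11. KLK3, the prostate-specific antigen gene, was at 0 in all 12 libraries. The summed level of 3 neuronal markers was 0.627 to 1.03 FPKM in BPH-1, 1.16 to 1.98 in DU145 and 0.0681 to 0.167 in PC3. In DU145 it came mainly from SNAP25 (1.40 FPKM), with RBFOX3 at 0.00419. SYP went the other way, with 0.809 FPKM in BPH-1, 0.246 in DU145 (limma adjusted p = 2.90e-04) and 0.109 in PC3. The 4 immune markers summed to 5.37 to 8.99, 5.10 to 9.95 and 6.88 to 13.7 FPKM, mostly CD68, with CD3E at 0 in all lines and PTPRC at 1.35, 0.649 and 0. The 3 endothelial markers summed to 0.231 to 0.615, 0.0548 to 0.350 and 1.19 to 2.28 FPKM. The PC3 sum was nearly all PECAM1 (1.69 FPKM), while VWF and CDH5 were at 0.0844 and 0.134 FPKM in BPH-1 and at 0.00585 and 0.00175 in PC3. The 4 fibroblast and muscle markers summed to 1.97 to 3.42, 0.633 to 1.40 and 3.09 to 4.03 FPKM, mostly COL1A1 in BPH-1 and PC3, while PDGFRB was at 0.317, 0.439 and 0.0501. The part of these differences in the results below was not tested. In bulk RNA, fewer cells that express a gene and less RNA of it per cell cannot be told apart.

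By class, 6 of 15 K2P genes, 4 of 16 inward rectifiers, 9 of 40 voltage-gated genes, 3 of 8 calcium- or sodium-activated genes and 2 of 18 auxiliary genes reached 0.5 FPKM. The K2P genes held the largest summed level of the 5 classes in each line. Their sum was 20.02 ± 1.34 FPKM in BPH-1, 45.8 ± 12.3 in DU145 and 17.4 ± 2.47 in PC3 (SD, n = 4). KCNK15 alone gave 28.3 FPKM of the DU145 sum, against 0.205 in BPH-1 and 1.10 in PC3. The higher K2P sum in DU145 is therefore not a difference of the class as a whole. Library totals over all deposited genes were unequal. They were 243707 to 249733 FPKM in BPH-1, 289756 to 302456 in DU145 and 293492 to 306698 in PC3. The part of these totals in the summed levels was not tested. The sum over all 97 KCN genes was 33.4 ± 3.25, 67.7 ± 15.7 and 40.6 ± 4.30 FPKM. A few genes carried it, since KCNK6, KCNK1 and KCNK5 made up 58.5% of the summed mean in BPH-1, KCNK15, KCNK5 and KCNG1 64.8% in DU145, and KCNK1, KCNK6 and KCNJ12 52.5% in PC3.

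Voltage-gated genes summed to 5.999 ± 1.34 FPKM in BPH-1, 13.5 ± 2.20 in DU145 and 5.87 ± 0.290 in PC3 (SD, n = 4). All 4 DU145 libraries lay above every library of the other lines. The 10 modifier genes counted in this class gave 2.36 FPKM of the sum in BPH-1, 8.43 in DU145 and 3.70 in PC3. In PC3 the inward rectifiers (6.19 ± 0.892 FPKM) and the calcium- or sodium-activated genes (7.37 ± 1.28 FPKM) stood above their levels in BPH-1 (2.95 ± 0.944 and 1.74 ± 0.457) and in DU145 (2.29 ± 0.524 and 2.18 ± 0.265), with no overlap of libraries.

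**Figure D2:**
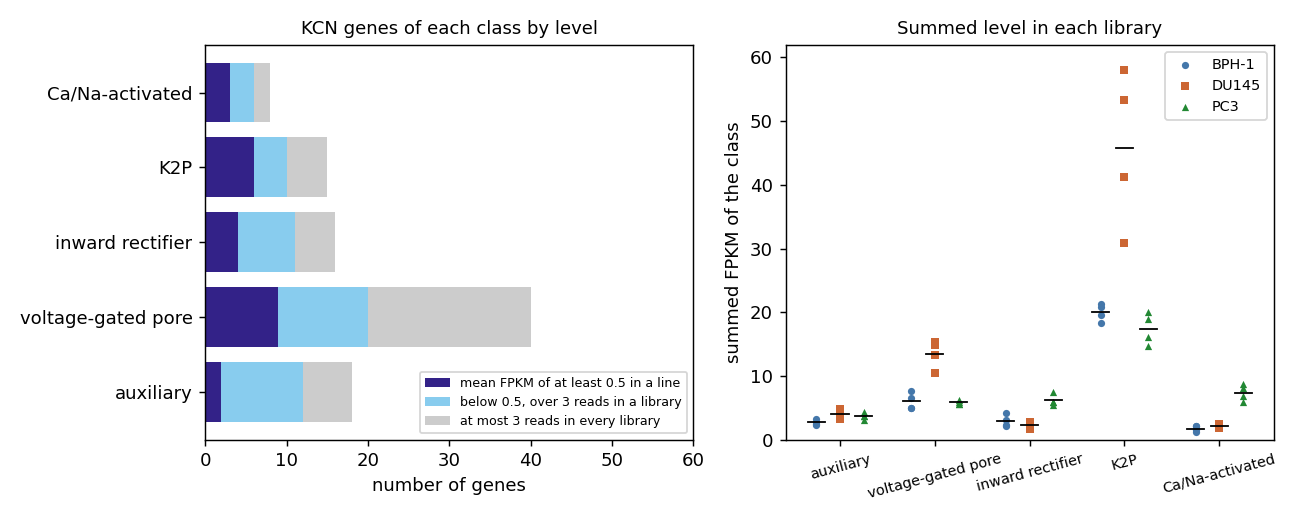
Left, number of KCN genes of each class with a mean of at least 0.5 FPKM in a line, below it, or with at most 3 reads in every library. Right, summed FPKM of each class in the 4 libraries of each line, with means as bars. K2P genes sum to between 30.8 and 58.0 FPKM in DU145, above the 21.3 FPKM of the highest BPH-1 library. KCNK15 alone has a mean of 28.3 FPKM in DU145 and 0.205 in BPH-1.

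The question of which potassium channel genes differ between the benign and PCa lines was addressed with limma on log2(FPKM + 1), adjusted over all genes tested. Genes entered a test with at least 10 reads in 4 libraries, so a member that was low in one line passed only through the line where it was high. The numbers called are therefore given as a description. In PC3 against BPH-1, 31 KCN genes were tested, 14 were called higher and 11 lower (limma adjusted p under 0.05), while 27.2% of all 16346 genes tested were called higher and 40.5% lower. With upper-quartile scaling the split was 15 higher and 6 lower. In DU145 against BPH-1, 20 of 40 KCN genes were higher and 12 lower, beside 30.3% and 32.3% of all 17072 genes. In PC3 against DU145, 6 of 32 were higher and 15 lower, beside 20.0% and 28.3% of 16209 genes.

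The median log2 fold change of the KCN genes tested was 0.06 in PC3 against BPH-1 (-0.13 over all genes tested), 0.27 in DU145 against BPH-1 (-0.03) and -0.21 in PC3 against DU145 (-0.05). The median over all genes moved with the scaling, from -0.28 with equal sums to 0.10 with upper quartiles in PC3 against BPH-1, and from -0.16 to 0.13 in DU145 against BPH-1. The comparisons with BPH-1 share the BPH-1 libraries. Of the 24 genes at 0.5 FPKM, 11 were higher and 8 lower in PC3 than in BPH-1, with 5 not tested. Of all 15143 genes tested at that level, 27.8% were higher and 40.5% lower. In DU145 against BPH-1, 13 were higher, 8 lower, and 3 did not pass the test, KCNAB2 and KCNJ14 among them, beside 30.6% higher and 33.0% lower of 15580 genes. In PC3 against DU145, 5 were higher, 12 lower, 5 did not pass and 2 were not tested, beside 20.3% higher and 27.8% lower of 15076 genes.

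**Figure D3:**
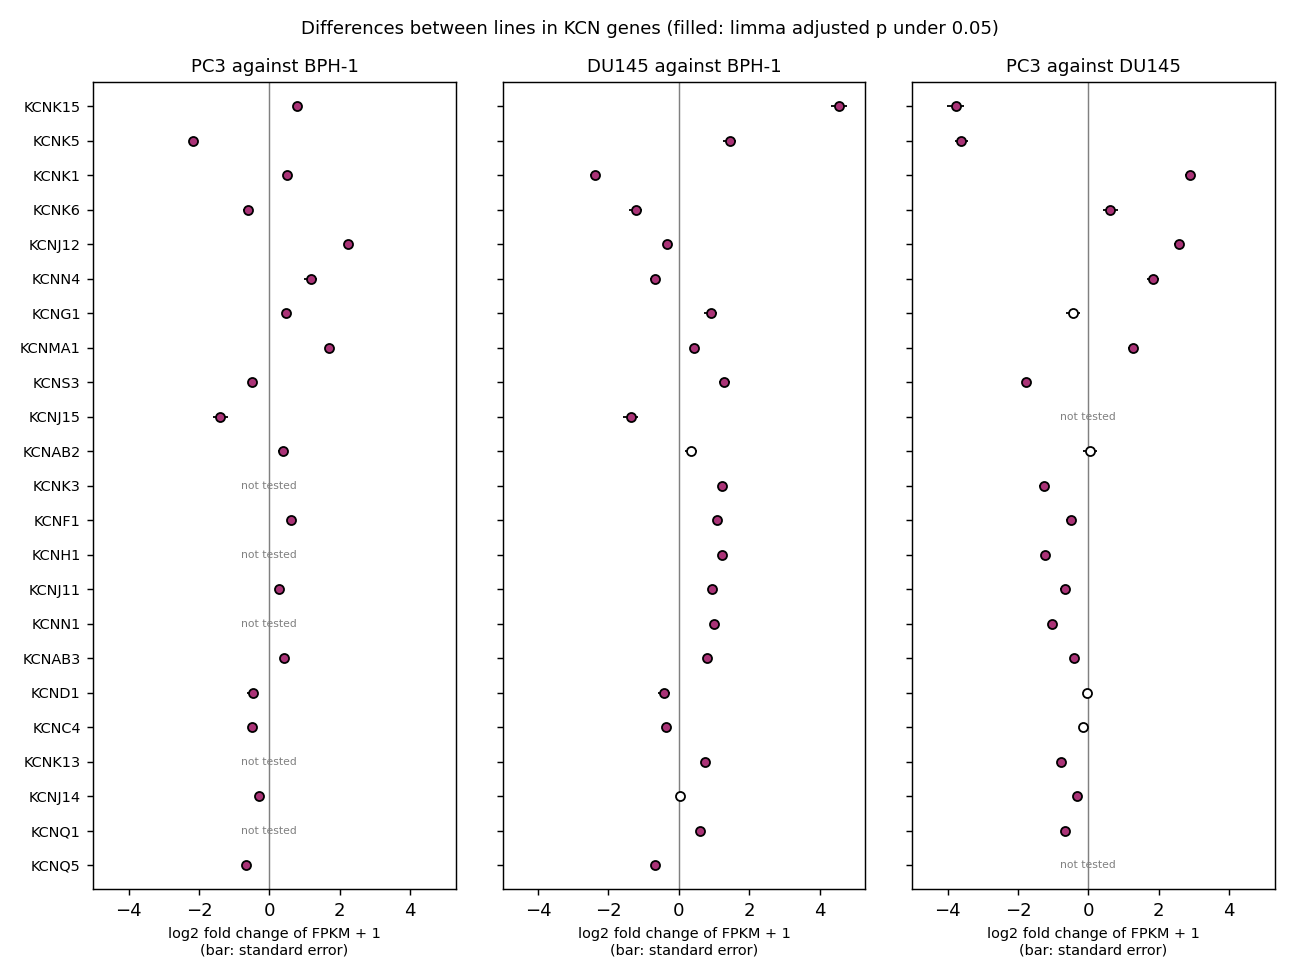
Log2 fold change of FPKM + 1 with its standard error for 23 of the 24 KCN genes in the 3 comparisons of lines (4 libraries per line). Filled points passed limma at an adjusted p under 0.05. KCNK15 reaches 4.56 in DU145 against BPH-1, and KCNK5 lies at -2.17 in PC3 against BPH-1.

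KCNK15 (ENSG00000124249), a K2P subunit grouped by sequence with the TASK channels, had the highest mean level of the KCN genes in any line. Its 4 libraries held 0.0998, 0.151, 0.198 and 0.370 FPKM in BPH-1, 37.9, 17.8, 31.5 and 25.95 FPKM in DU145, and 0.862, 0.730, 1.25 and 1.57 FPKM in PC3. The 3 lines did not overlap, with DU145 far above PC3 and PC3 above BPH-1. The DU145 mean was 138-fold the BPH-1 mean (log2 fold change of FPKM + 1, 4.56 ± 0.23 SE, limma adjusted p = 3.34e-07), and the PC3 mean 5.39-fold (0.79 ± 0.13, adjusted p = 4.44e-04). KCNK15 shares 506 of its 2599 exonic bases with RIMS4 on the opposite strand. The use of strand in counting is not given in the sources used here, so reads in the shared bases cannot be assigned. RIMS4 itself was at 0.0468 FPKM in BPH-1, 5.92 in DU145 and 0.0031 in PC3.

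KCNK5, the alkaline-activated K2P channel TASK-2 known from volume regulation in epithelia, was detected in BPH-1 and DU145 and not in PC3. BPH-1 held 3.63, 3.28, 3.41 and 3.65 FPKM and DU145 13.4, 9.06, 14.2 and 9.07 FPKM. The 4 PC3 libraries held 0 reads, where 3 reads in a library would be 0.0598 FPKM. Against that floor BPH-1 was at least 58.4-fold higher and DU145 at least 191-fold higher than PC3. DU145 stood 3.28-fold above BPH-1 (log2 fold change 1.44 ± 0.18 SE, limma adjusted p = 9.08e-05), and PC3 lay below BPH-1 (-2.17 ± 0.08, adjusted p = 4.13e-08).

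KCNK1 (TWIK-1), a weakly conducting K2P channel, was low in DU145. It was at 6.88, 8.36, 6.46 and 7.45 FPKM in BPH-1, at 0.459, 0.565, 0.654 and 0.700 FPKM in DU145, and at 9.59, 10.4, 11.6 and 11.3 FPKM in PC3. The groups did not overlap. BPH-1 was 12.3-fold and PC3 18.0-fold above DU145 (limma adjusted p = 1.02e-06 and 6.48e-07). PC3 was 1.47-fold above BPH-1 (log2 fold change 0.50 ± 0.11 SE, adjusted p = 0.00315), a call that was lost with equal sums per library (0.26).

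KCNK6 (TWIK-2), its close relative, was highest in BPH-1. The values were 8.81, 9.11, 8.05 and 9.08 FPKM in BPH-1, 3.44, 2.097, 3.97 and 3.40 in DU145, and 4.15, 4.90, 6.01 and 7.04 in PC3. It was 2.71-fold lower in DU145 than in BPH-1 (limma adjusted p = 2.13e-04) and 1.59-fold lower in PC3 (adjusted p = 0.00494), where the call was lost with upper-quartile scaling. PC3 lay 1.71-fold above DU145 (adjusted p = 0.0310), and that call was lost without any 1 of DU145 replicates 1, 2 and 4 or PC3 replicates 2, 3 and 4, and with upper-quartile scaling.

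The other K2P genes at 0.5 FPKM were KCNK3 (TASK-1) and KCNK13 (THIK-1), both found at that level in DU145 alone. KCNK3 was at 1.78, 0.944, 1.996 and 1.16 FPKM in DU145, and at no more than 0.0714 FPKM (9 reads) in any library of the other lines. KCNK13 was at 0.954, 0.340, 0.951 and 0.857 FPKM in DU145, with at most 5 reads in a library elsewhere. Both were higher in DU145 than in BPH-1 (log2 fold change 1.24 ± 0.13 and 0.76 ± 0.12 SE, limma adjusted p = 3.05e-05 and 3.38e-04).

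Among inward rectifiers KCNJ12 (Kir2.2), a strong rectifier known from heart and skeletal muscle, was the leading gene of PC3. It held 0.147, 0.358, 0.223 and 0.342 FPKM in BPH-1, 0, 0.00817, 0.0173 and 0 FPKM in DU145 (at most 2 reads), and 4.42, 4.69, 4.83 and 6.31 FPKM in PC3. Every PC3 library lay above every BPH-1 library, 18.9-fold by the means (log2 fold change 2.25 ± 0.12 SE, limma adjusted p = 5.39e-07). KCNJ18 shares 1286 of 1299 coding bases (99.0%) with KCNJ12, so reads could be split between the 2 genes and both values are uncertain. KCNJ18, named after its values were seen, had at most 5 reads in a PC3 library.

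KCNJ15 (Kir4.2) went the other way from KCNJ12 in PC3 against BPH-1, while both genes were lower in DU145 than in BPH-1. It was at 3.14, 1.89, 1.16 and 0.854 FPKM in BPH-1, a wide spread, at 0.0399, 0.0449, 0.00559 and 0 FPKM in DU145, and at 0 reads in the 4 PC3 libraries. BPH-1 was 77.9-fold above DU145 (limma adjusted p = 3.30e-04), and at least 182-fold above PC3 with 3 reads per library as the floor (log2 fold change -1.40 ± 0.21 SE, adjusted p = 2.89e-04).

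KCNJ11 (Kir6.2), the pore of ATP-sensitive potassium channels, was at 0.128, 0.00991, 0.0585 and 0.145 FPKM in BPH-1, 1.53, 0.658, 1.19 and 1.06 FPKM in DU145 and 0.257, 0.287, 0.436 and 0.280 FPKM in PC3. The lines did not overlap, and DU145 was above BPH-1 (log2 fold change 0.94 ± 0.12 SE, limma adjusted p = 9.03e-05). These channels assemble with a sulfonylurea receptor, ABCC8 or ABCC9, which were looked at after the values were seen. ABCC8 had 0 reads in BPH-1 and DU145 and at most 6 in PC3. ABCC9 was at 0.281 FPKM in BPH-1, and had at most 2 reads in any library of DU145 or PC3. KCNJ14 was at 0.636, 0.683 and 0.340 FPKM, and shares 350 exonic bases on its own strand with GRWD1, a gene at 19.2 to 22.2 FPKM. It was lower in PC3 than in BPH-1 (limma adjusted p = 0.0134), a call lost with upper-quartile scaling. Against DU145 it was also lower (adjusted p = 0.0410), a call lost without any 1 of DU145 replicates 1, 3 and 4 or PC3 replicates 1, 2 and 3. This call was also lost with no filter, with at least 10 reads required in every library of the fit, and with median-of-ratios or upper-quartile scaling.

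KCNN4 (KCa3.1), the intermediate-conductance calcium-activated channel, was at 1.22, 1.85, 1.07 and 1.92 FPKM in BPH-1, 0.746, 0.334, 0.689 and 0.505 FPKM in DU145 and 3.36, 5.195, 5.60 and 4.59 FPKM in PC3. The order PC3, BPH-1, DU145 held without overlap. PC3 was 3.09-fold above BPH-1 (log2 fold change 1.18 ± 0.17 SE, limma adjusted p = 2.52e-04) and 8.24-fold above DU145, and BPH-1 was 2.67-fold above DU145 (adjusted p = 0.00287). KCNN1, a small-conductance channel of the same family, was found in DU145 at 1.22, 0.938, 1.31 and 0.943 FPKM, with at most 5 reads in a library of the other lines (27.7-fold over BPH-1, adjusted p = 3.84e-06). Both are gated through bound calmodulin.

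KCNMA1, the pore of the large-conductance BK channel that opens with calcium and voltage together, was lowest in BPH-1 and highest in PC3, with no overlap between lines. It was at 0.129, 0.0997, 0.112 and 0.132 FPKM in BPH-1, 0.422, 0.575, 0.397 and 0.609 FPKM in DU145 and 2.42, 2.80, 3.01 and 2.22 FPKM in PC3. PC3 was 22.1-fold and DU145 4.23-fold above BPH-1 (limma adjusted p = 4.00e-07 and 2.09e-04), and PC3 was 5.22-fold above DU145 (adjusted p = 3.76e-05). KCNMA1 has many isoforms, and with merged exons its PC3 level would be 7.23 FPKM in place of 2.61.

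The BK partners differed as well. LRRC38, a gamma subunit that shifts BK activation to lower voltages, was at 16.9, 20.8, 25.2 and 18.1 FPKM in PC3, with no more than 5 reads in any library of BPH-1 and 0 in DU145 (log2 fold change of PC3 against BPH-1 4.33 ± 0.14 SE, limma adjusted p = 2.70e-08). The other partners were singled out after their values were seen. LRRC26, another gamma subunit, was at 0.547, 0.426 and 0.679 FPKM, with libraries that overlapped in all lines. Of the 4 beta subunits, KCNMB1 and KCNMB2 had 0 reads, KCNMB3 was at 0.217, 0.143 and 0.105 FPKM, and KCNMB4 at 0.426, 0.144 and 0.354. KCNMB4 was lower in DU145 than in BPH-1 (-0.32 ± 0.08, adjusted p = 0.00677) and did not pass in PC3 against BPH-1 (adjusted p = 0.439). It was higher in PC3 than in DU145 (limma adjusted p = 0.00829). KCNMB3 was lower in PC3 than in BPH-1 (limma adjusted p = 0.0114) and did not pass in the other comparisons. It shares 3403 of 8979 exonic bases with PIK3CA on the opposite strand (4.49, 0.516 and 0.947 FPKM). It also shares 864 bases with LRRFIP1P1 on its own strand, so its level is uncertain.

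**Figure D4:**
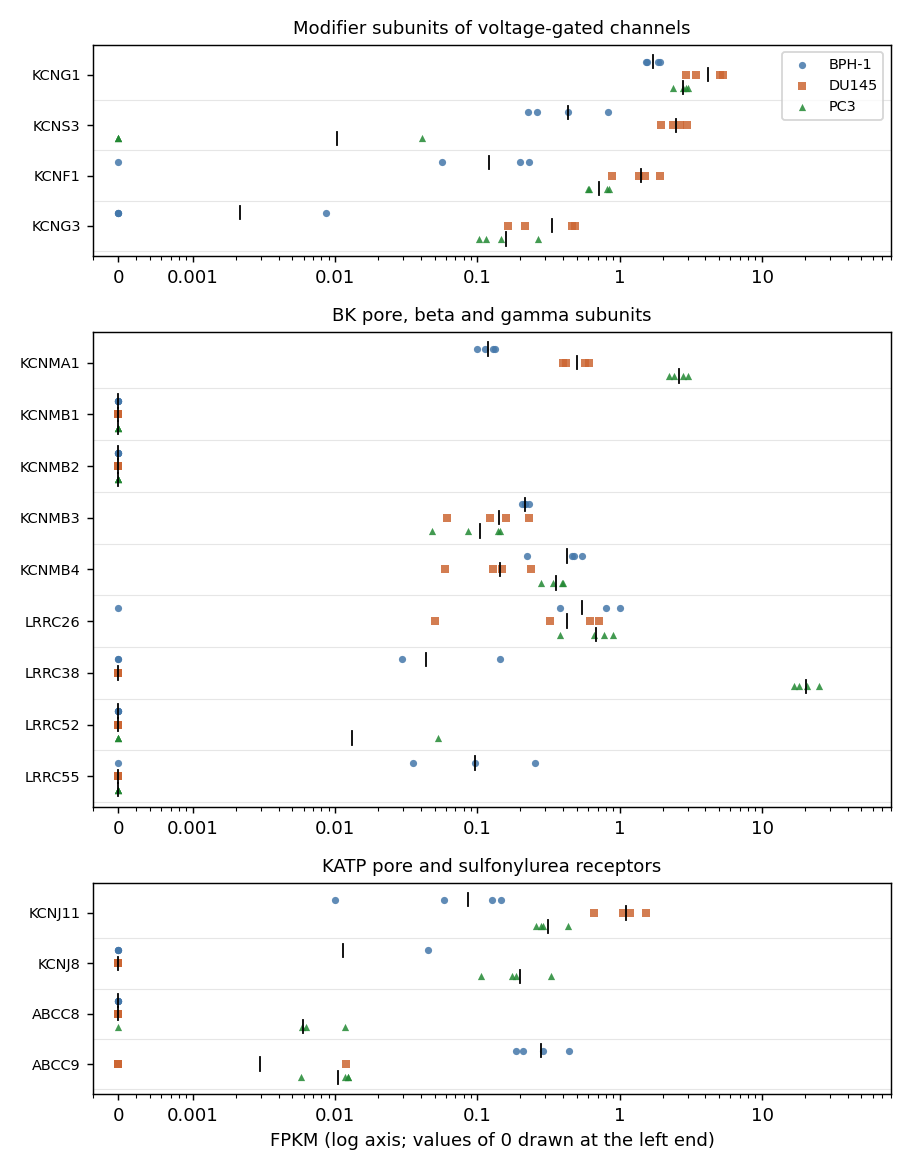
FPKM (log axis, with values of 0 at the left end) in the 4 libraries of each line, with means as bars. Top, modifier subunits of voltage-gated channels. Middle, the BK pore KCNMA1 with beta and gamma subunits. Bottom, KATP pores with sulfonylurea receptors. LRRC38 lies between 16.9 and 25.2 FPKM in PC3, and ABCC8 and ABCC9 had at most 2 reads in the DU145 libraries, where KCNJ11 averaged 1.11 FPKM.

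Among voltage-gated subunits the leading genes were modifiers. KCNG1, KCNS3 and KCNF1 encode subunits that form no channel alone and are known to co-assemble with other voltage-gated subunits. KCNG1 was at 1.52, 1.93, 1.54 and 1.87 FPKM in BPH-1, 5.05, 2.93, 5.28 and 3.45 in DU145 and 2.37, 2.77, 2.92 and 3.003 in PC3. Both PCa lines lay above BPH-1 without overlap (2.44-fold in DU145, limma adjusted p = 0.00208, and 1.61-fold in PC3, adjusted p = 0.00408). In PC3 the KCNG1 call was lost when each library's GC trend was divided out, with a log2 fold change of 0.15 in place of 0.47. PC3 and DU145 overlapped and did not pass the test (adjusted p = 0.0857), although the gene passed without DU145 replicate 2.

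KCNS3 was at 0.264, 0.822, 0.228 and 0.430 FPKM in BPH-1, 2.67, 1.94, 2.99 and 2.38 FPKM in DU145, and at 0 reads in 3 PC3 libraries and 3 in the remaining one. DU145 was 5.73-fold above BPH-1 (limma adjusted p = 7.63e-05), and PC3 lay below BPH-1 (log2 fold change -0.49 ± 0.11 SE, adjusted p = 0.00311). KCNF1 was at 0.121 FPKM in BPH-1, 1.42 in DU145 and 0.714 in PC3, higher in both PCa lines (11.8-fold and 5.91-fold, adjusted p = 7.32e-05 and 1.43e-04). It was lower in PC3 than in DU145 (adjusted p = 0.0217), a call lost without DU145 replicate 4 or without PC3 replicate 2 or 3, and with upper-quartile scaling.

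The 10 modifier genes (KCNF, KCNG, KCNS and KCNV) summed to 2.36 ± 0.499 FPKM in BPH-1, 8.43 ± 1.82 in DU145 and 3.70 ± 0.243 in PC3 (SD, n = 4). All 4 DU145 libraries lay above every library of the other lines, with 6.21 FPKM in the lowest.

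KCNH1 (Kv10.1, EAG1), whose expression outside the nervous system is known from tumours, was at 1.65, 1.45, 0.879 and 1.52 FPKM in DU145, with at most 2 reads in any BPH-1 or PC3 library. DU145 was above BPH-1 (log2 fold change 1.23 ± 0.11 SE, limma adjusted p = 8.06e-06) and above PC3 (adjusted p = 2.01e-05). KCNH2 (hERG), just below 0.5 FPKM, had the same order with 0.0132, 0.455 and 0.00175 FPKM (adjusted p = 1.76e-04 for DU145 against BPH-1). The 8 KCNH genes summed to 0.465 ± 0.282 FPKM in BPH-1, 2.19 ± 0.338 in DU145 and 0.138 ± 0.0183 in PC3.

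The KCNQ genes, which carry slow non-inactivating currents, were divided between lines. KCNQ5 was at 0.529, 0.638, 0.671 and 0.552 FPKM in BPH-1, with 1 read in all of DU145 and 0 in PC3 (BPH-1 at least 59.0-fold above PC3 with 3 reads per library as the floor, limma adjusted p = 1.48e-06). KCNQ1, best known in heart and epithelia, was at 0.528, 0.306, 0.913 and 0.758 FPKM in DU145, 12.1-fold above BPH-1 (adjusted p = 6.47e-04), and had at most 2 reads in a PC3 library. The KCNE beta subunits that KCNQ1 can pair with summed to 0.476, 0.178 and 0.188 FPKM over 6 genes. AKAP9, an anchoring protein of the KCNQ1 channel complex, was at 4.72 FPKM in BPH-1, 0.121 in DU145 and 0.234 in PC3 (adjusted p = 7.73e-06 for PC3 against BPH-1).

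KCNC4 and KCND1 encode fast voltage-gated channels (Kv3.4 and Kv4.1). KCNC4 was at 0.855 FPKM in BPH-1, 0.441 in DU145 and 0.300 in PC3, and was lower in both PCa lines (limma adjusted p = 0.0227 and 0.00198). The call in DU145 was lost without BPH-1 replicate 2 or 4 or DU145 replicate 4, and with no filter or upper-quartile scaling. KCND1 was at 0.631, 1.83, 0.686 and 0.640 FPKM in BPH-1, so that 1 library set the mean, and at 0.405 and 0.361 FPKM in DU145 and PC3. Its call was at the threshold in DU145 (adjusted p = 0.0496) and was lost there without any 1 of BPH-1 replicate 3 and the 4 DU145 libraries. In PC3 (adjusted p = 0.0291) the KCND1 call was lost without replicate 1 or 2 of PC3. Both KCND1 calls were also lost with no filter and with upper-quartile scaling. Without BPH-1 replicate 2 both calls held, and the log2 fold change of KCND1 went from -0.43 to -0.24 in DU145 and from -0.47 to -0.28 in PC3. The 8 KCNA genes of the Shaker group had at most 3 reads in any library.

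Of the auxiliary genes, only KCNAB2 and KCNAB3, cytoplasmic beta subunits of Kv1 channels, reached 0.5 FPKM. KCNAB3 was at 0.145 FPKM in BPH-1, 0.999 in DU145 and 0.520 in PC3, with no overlap between lines (6.88-fold and 3.58-fold over BPH-1, limma adjusted p = 1.23e-05 and 2.09e-04). KCNAB2 was at 1.09, 1.71 and 1.76 FPKM. It passed in PC3 against BPH-1 (1.61-fold, adjusted p = 0.0248) and not in DU145 (adjusted p = 0.0999), and in PC3 the call was lost without any 1 of BPH-1 replicates 1, 2 and 3 or PC3 replicates 3 and 4. The call was also lost in 1 fit over all 3 lines, with equal sums per library and with the GC trend divided out, where the log2 fold change of KCNAB2 went from 0.39 to 0.23 with equal sums and to 0.13 with the GC trend divided out. KCNIP3, a calcium-binding subunit of Kv4 channels, was higher in both PCa lines (5.15-fold in DU145 and 6.42-fold in PC3, adjusted p = 1.43e-04 and 3.29e-05).

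Of 28 other potassium transport genes (pumps, HCN channels, partner subunits and calmodulins), 6 of 16 tested were higher and 8 lower in PC3 than in BPH-1, beside 27.2% and 40.5% of all genes tested. In DU145 against BPH-1, 5 of 18 were higher and 6 lower, beside 30.3% and 32.3%. In PC3 against DU145, 3 of 17 were higher and 7 lower, beside 20.0% and 28.3%. HCN4, a hyperpolarization-activated pacemaker channel, was at 2.43, 1.51, 1.62 and 1.35 FPKM in DU145, with 0 reads in BPH-1 and at most 2 in a PC3 library. TMEM38A and TMEM38B, the intracellular TRIC channels, moved in opposite directions in PC3 against BPH-1, with TMEM38A at 1.16 FPKM in BPH-1 and 5.94 in PC3 and TMEM38B at 6.96 and 1.60 (limma adjusted p = 2.17e-05 and 2.38e-05).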

How the data were processed

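The authors deposited 1 table of 58302 genes for the 12 libraries. Its header gives no unit, and the values behaved as FPKM, with gene length taken by the authors as the sum of distinct exons of GENCODE 29, since 92.1% to 93.7% of low protein-coding values then came out as whole reads (within 0.02 of a whole number, up to 30 reads), against 16.0% to 19.0% with merged exons. The submitters' processing notes name CASAVA 1.8, HISAT2 2.1.0, edgeR and GRCh38, with no role for edgeR. The use of strand and any filter are not given in the sources used here.

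Reads per gene were recovered from the value steps and depth. For 11 KCN genes the length was taken from the steps. These reads served for the filter, the 3-read floors and voom. Floors cover counting error only.

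limma 3.58.1 (trend) in R 4.3.3 was fitted to log2(FPKM + 1) of the deposited values for each pair of lines (4 against 4), for genes that reached 10 reads in 4 libraries, scaled to the median depth, and 15 in all. p-values were Benjamini-Hochberg adjusted over all genes tested, and were called under 0.05. On this scale the fold changes of low genes are understated, and folds in the text are ratios of mean FPKM. The scripts were tested on simulated data. Figures and tables used Python 3.11.15, numpy 2.4.6, pandas 2.3.3 and matplotlib 3.10.9.

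Genes named were those with a mean of 0.5 FPKM in any line, the 10 largest called changes without overlap in each comparison, the 3 next below 0.5 and up to 3 list genes per direction and comparison. Members and lists were chosen with earlier results of these data known. Coding windows are printed in place of protein stretches. Some items examined are not reported here. Alternatives were other filters, pseudocount, scalings, a replicate block, 1 fit over all lines, voom, exact permutation tests and each library left out. A GC correction and merged exon lengths were added after the data were seen.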

Additional observations from a re-analysis of the deposited data

Results flagged for a closer look

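In 3 of 68 groups of 4 libraries tested with Dixon's criterion, 1 library lay far from the others, and chance flags about 1 in 20 groups. KCND1 was at 1.828 FPKM in BPH-1 replicate 2 and between 0.631 and 0.686 in the other BPH-1 libraries. KCNJ11 was at 0.4361 FPKM in PC3 replicate 3, against 0.257 to 0.287 in the other PC3 libraries. KCNK13 was at 0.3404 FPKM in DU145 replicate 2, against 0.857 to 0.954 in the other DU145 libraries.

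The 5 genes KCNJ12, KCNK1, KCNK5, KCNN4 and KCNS3 were called in opposite directions in PC3 and DU145 against the same BPH-1 libraries. They were picked for this from these libraries, so a difference between PC3 and DU145 largely follows from the choice. The limma values of PC3 against DU145 (4 against 4 libraries, with no overlap) are therefore a description and no separate support. The log2 difference of PC3 from DU145 was 2.58 for KCNJ12 (adjusted p = 9.14e-07), 2.878 for KCNK1 (6.48e-07), -3.61 for KCNK5 (8.09e-07), 1.848 for KCNN4 (2.99e-05) and -1.782 for KCNS3 (2.88e-06).

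Among the 21 KCN rows that are not protein-coding, a pair of transcripts annotated as sense intronic within KCN genes stood out. KCNQ5-IT1 had a mean of 0.8322 FPKM in BPH-1 and 0 in DU145 and PC3. KCNH1-IT1 had 13.96 FPKM in DU145, 0.0777 in BPH-1 and 0.0288 in PC3. In each case the line was the one where the host gene, KCNQ5 or KCNH1, had its highest level.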

How the results depend on the processing

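The number of KCN genes at 0.5 FPKM in any line was 24 as deposited and between 24 and 26 with other scalings or with any 1 library left out, 29 with merged exons and 16 at a threshold of 1 FPKM, where the numbers fell to 7 in BPH-1 and 11 in DU145. Requiring 10 reads throughout a fit tests fewer genes, and gave 7 higher and 4 lower in PC3 against BPH-1, 5 and 5 in DU145 against BPH-1, and 4 lower in PC3 against DU145. The number higher in PC3 against DU145 with this filter is not given here. With an absolute log2 fold change over 1 required, the calls were 3 higher and 2 lower, 7 higher and 3 lower, and 6 lower in these comparisons. In PC3 against DU145, KCNK1 (2.88), KCNJ12 (2.58), KCNN4 (1.85) and KCNMA1 (1.265) were also called higher with a log2 fold change over 1. Upper-quartile scaling gave 6 lower in PC3 against BPH-1. With 1 library left out, the calls were 12 to 14 higher and 10 to 12 lower in PC3 against BPH-1, 20 higher and 10 to 12 lower in DU145 against BPH-1, and 5 to 6 higher and 13 to 16 lower in PC3 against DU145.

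No regular pairing by replicate number was seen. Same-numbered libraries correlated between -0.65 and 0.51 in their deviations from the line means. With so few libraries per line this check cannot show that the samples were unpaired. With the replicate number as a block, the calls were 13 higher and 11 lower, 20 and 11, and 5 and 14. Calls lost with it included KCNK6 and KCNJ14 in PC3 against DU145 and KCND1 in DU145 against BPH-1. Of 1245 alternative values over 71 fold changes of named genes, 1174 kept their direction and side of the threshold, 61 lost the call, 10 gained one and 0 reversed. At these depths 0 reads of KCNK5 in a PC3 library allow a level of up to 0.0598 FPKM, that of 3 reads.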
